A study of Homo sapiens with 11 samples.

Results

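Nuclear-encoded mRNAs of oxidative phosphorylation (OXPHOS) were followed through 3 lists of RNA windows enriched with V5-tagged RPS19, which belongs to the small subunit of the cytosolic ribosome. A listed window was taken when 1 of its gene names began with NDUF, UQCR, COX4, COX5, COX6, COX7, COX8 or ATP5, or was SDHA, SDHB, SDHC, SDHD or CYC1. This took 563 of the 122708 different windows in the lists. They made up 422 of 93331 windows in the R101H list, 424 of 86567 in the R62W list and 129 of 15402 in the WT list. RefSeq names 98 protein-coding genes that the rule takes, NDUFA4 through a synonym, and 86 of them had a window in at least 1 list. The choice used names only and no measured value, and it also took 1 window of the pseudogene UQCRFS1P1 in the R101H list.

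The complexes of OXPHOS sit in the inner mitochondrial membrane. Complexes I and II pass electrons from NADH and succinate to ubiquinone, complex III passes them on to cytochrome c and complex IV to oxygen, and complex V (ATP synthase) uses the resulting proton gradient to make ATP. Most subunits are encoded in the nucleus, translated by cytosolic ribosomes and imported, while a small core is made inside the organelle by mitochondrial ribosomes.

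The study used enhanced crosslinking and immunoprecipitation (eCLIP), in which RNA crosslinked to a protein is fragmented, pulled down with it and sequenced beside a size-matched input. The groups were HEK293T cells, a human embryonic kidney line, transfected with a plasmid for V5-tagged RPS19 carrying the Diamond-Blackfan anemia substitution R101H (2 IP samples) or R62W (3), or for wild-type RPS19 (WT, 3), with 3 size-matched inputs from untransfected cells. All IP cells thus overexpressed a tagged copy beside their own RPS19, and the inputs carried no plasmid. The labels do not state that replicates came from different cultures, and p-values therefore reflect just the spread among these samples, which may be technical. The unit throughout is the log2 odds ratio of IP over input in a window of up to 100 bases, listed where at least 2 replicates passed and the highest q was under 0.2. Values exist only for replicates that passed, so a window absent from a list has no value rather than a value of 0. Windows in the RPS19 coding sequence had median log2 odds ratios of 4.84 over 7 windows in R101H, 5.05 over 7 in R62W and 5.20 over 6 in WT. No total per library is given, and counts are summed over passing replicates, so they are not compared between groups. The median OXPHOS window had a pooled IP count of 73.5 and a pooled input count of 24 in R101H, 70.5 and 24 in R62W, and 74 and 29 in WT. Over all listed windows these medians were 48 and 11, 47 and 12, and 49 and 11.

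A set of OXPHOS mRNAs was recovered at the very start of the transcript. The first 30 bases of these mRNAs are shown because the windows lie on or begin with them. Windows annotated as 5′ UTR spanned the RefSeq start of 21 OXPHOS genes in the R101H list, 20 in the R62W list and 9 in the WT list, or 26 genes in any list. As a share of windows, 5′ UTR windows made up 8.06% of OXPHOS windows in R101H, 6.84% in R62W and 7.75% in WT, and 3.88%, 4.03% and 3.49% of all windows. The part that transcript length has in these shares was not tested. All 9 genes of the WT list were in the other lists as well, and 6 of the 9 encode complex IV subunits. The sequences below are RefSeq's on GRCh38.p14, 5′ to 3′ on the coding strand, and capitals mark a run of at least 5 pyrimidines that opens with C at the first base, the mark of terminal oligopyrimidine mRNAs. They are those 9 genes, and UQCRH, whose start window was listed in R101H and R62W only.
COX7C (chr5:86617941-86617970, plus strand): CTTTTCagtccttgcgcaccggggaacaag
ATP5MC2 (chr12:53676054-53676083, minus strand): CCCCTCTCTgtcttctctgcagtgggagca
UQCRH (chr1:46303698-46303727, plus strand): CTTCTTgatcctgaactgggttaggtgccg
COX5B (chr2:97646062-97646091, plus strand): agttttgctgctagtcgcggacgcaatggc
COX6A1 (chr12:120438113-120438142, plus strand): agtccagatcaaaaatggcggtagttggtg
COX6B1 (chr19:35648323-35648352, plus strand): agtagttccgcttcctgtccgactgtggtg
COX7B (chrX:77899468-77899497, plus strand): gtttttcagctcacttcaagggtacctgaa
COX8A (chr11:63974620-63974649, plus strand): attttggcttcctgaccttgggctacggct
NDUFA1 (chrX:119871832-119871861, plus strand): gcttgctgggaagagaggcgaagccaggtc
NDUFA2 (chr5:140647601-140647630, minus strand): gcacttggcctgaagacctggaattggcga

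Such a pyrimidine run opened 3 of the 26 genes with a start window, and 2 of the 9 listed in all 3 groups. Over all genes with a RefSeq start sequence, on the coding strand, it opened 9 of 77 OXPHOS genes (11.7%) and 1404 of 27305 genes (5.14%). The letters describe the RefSeq start only, since cells may use other starts. In the start windows of all 3 lists, the mean of R101H exceeded that of WT in 9 of 9 genes, with a median difference of 0.55, and that of R62W exceeded WT in 6 of 9, with a median difference of 0.19. R101H exceeded R62W in 8 of 9, with a median of 0.48. Over all 10627 windows in the 3 lists, R101H exceeded WT in 84.5% (median 0.63) and R62W exceeded WT in 78.4% (median 0.32). R101H exceeded R62W in 79.3% of these windows (median 0.31).

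The start window of COX7C, a small subunit of complex IV, had log2 odds ratios of 1.38 and 2.31 in R101H, 1.35, 1.73 and 1.86 in R62W and 0.87, 1.50 and 1.52 in WT. That of ATP5MC2, a gene of the membrane ring subunit c of ATP synthase, had 1.10 and 1.91 in R101H, 0.68, 0.93 and 1.33 in R62W, and 0.67 and 0.97 in the 2 WT replicates that passed. The COX7C ranges overlapped in all 3 groups, while in ATP5MC2 both R101H values lay above both WT values. For COX5B, a peripheral subunit of complex IV, R101H had 2.01 and 2.11, R62W had 1.52, 1.59 and 1.65, and WT had 1.36 and 1.44, so that R101H lay apart from both other groups. COX8A and COX6A1, also of complex IV, had R62W means of 1.13 and 1.02 below WT means of 1.27 and 1.14, with R101H means of 1.62 and 1.53. The start window of NDUFA1, a small membrane subunit of complex I (chromosome X, 119871832 to 119871911), had 1.98 and 2.19 in R101H, 1.89, 2.02 and 2.24 in R62W and 1.01, 1.20 and 1.34 in WT. Every value of either substitution lay above every WT value there. The R101H minus WT difference was 0.90 (SE 0.34, limma adjusted p = 0.207), and R62W minus WT was 0.87 (SE 0.25, limma adjusted p = 0.391), so neither passed the threshold of 0.05. Limma values come from the fit over all windows shared by the pair of groups, unless another fit is named. Over all windows shared with WT, every passing R101H value lay above every passing WT value in 48.4%, and R62W did so in 24.1%.

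More OXPHOS genes and windows were listed with either substitution than with WT, but the step was smaller than over the whole lists. Of the 86 genes, R101H listed 80 (93.0%), R62W 85 (98.8%) and WT 51 (59.3%). For all 8697 genes named in any list the shares were 93.5% with R101H, 89.5% with R62W and 38.0% with WT. The OXPHOS windows numbered 3.27 times the WT number in R101H and 3.29 times in R62W, against 6.06 and 5.62 times for all windows. Their share of the R101H list was 0.452%, that of the R62W list 0.490% and that of the WT list 0.838%. Within coding sequence alone, OXPHOS windows numbered 254 in R101H, 258 in R62W and 85 in WT, or 2.99 and 3.04 times the WT number, against 9.10 and 8.35 times for all coding windows. The order of the groups also depends on the depth of the lists: with each list cut to the WT length by q, R101H kept 58 OXPHOS windows in 34 genes and R62W 76 in 46, fewer than the 129 in 51 genes of WT. Each group has 1 list, so these counts carry no replicate error and no test between groups.

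No OXPHOS gene was listed in WT alone, and all 51 WT genes were in both substitution lists. Neither share was computed over all genes, and the R101H and R62W lists were 6.06 and 5.62 times as long as the WT list. A further 28 genes were in both substitution lists and not in WT (32.6% of 86, where the share over all genes was 46.1%). Another 7 were in 1 substitution list only. Those 7 were NDUFB1 in R101H, and NDUFA5, NDUFB5, NDUFAF2, NDUFAF4, NDUFAF7 and SDHD in R62W, each with 1 window. The 12 genes in no list included the tissue-restricted forms COX4I2, COX6A2, COX6B2, COX7A1, COX7B2 and COX8C, the paralogs UQCRHL and ATP5MGL, the readthrough NDUFC2-KCTD14, and NDUFV3, NDUFAF1 and NDUFAF6. The plot of windows per gene shows the WT row blank across the lower ranks of complex I and the top of complex III, and filled across most of complex IV.

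**Figure D1:**
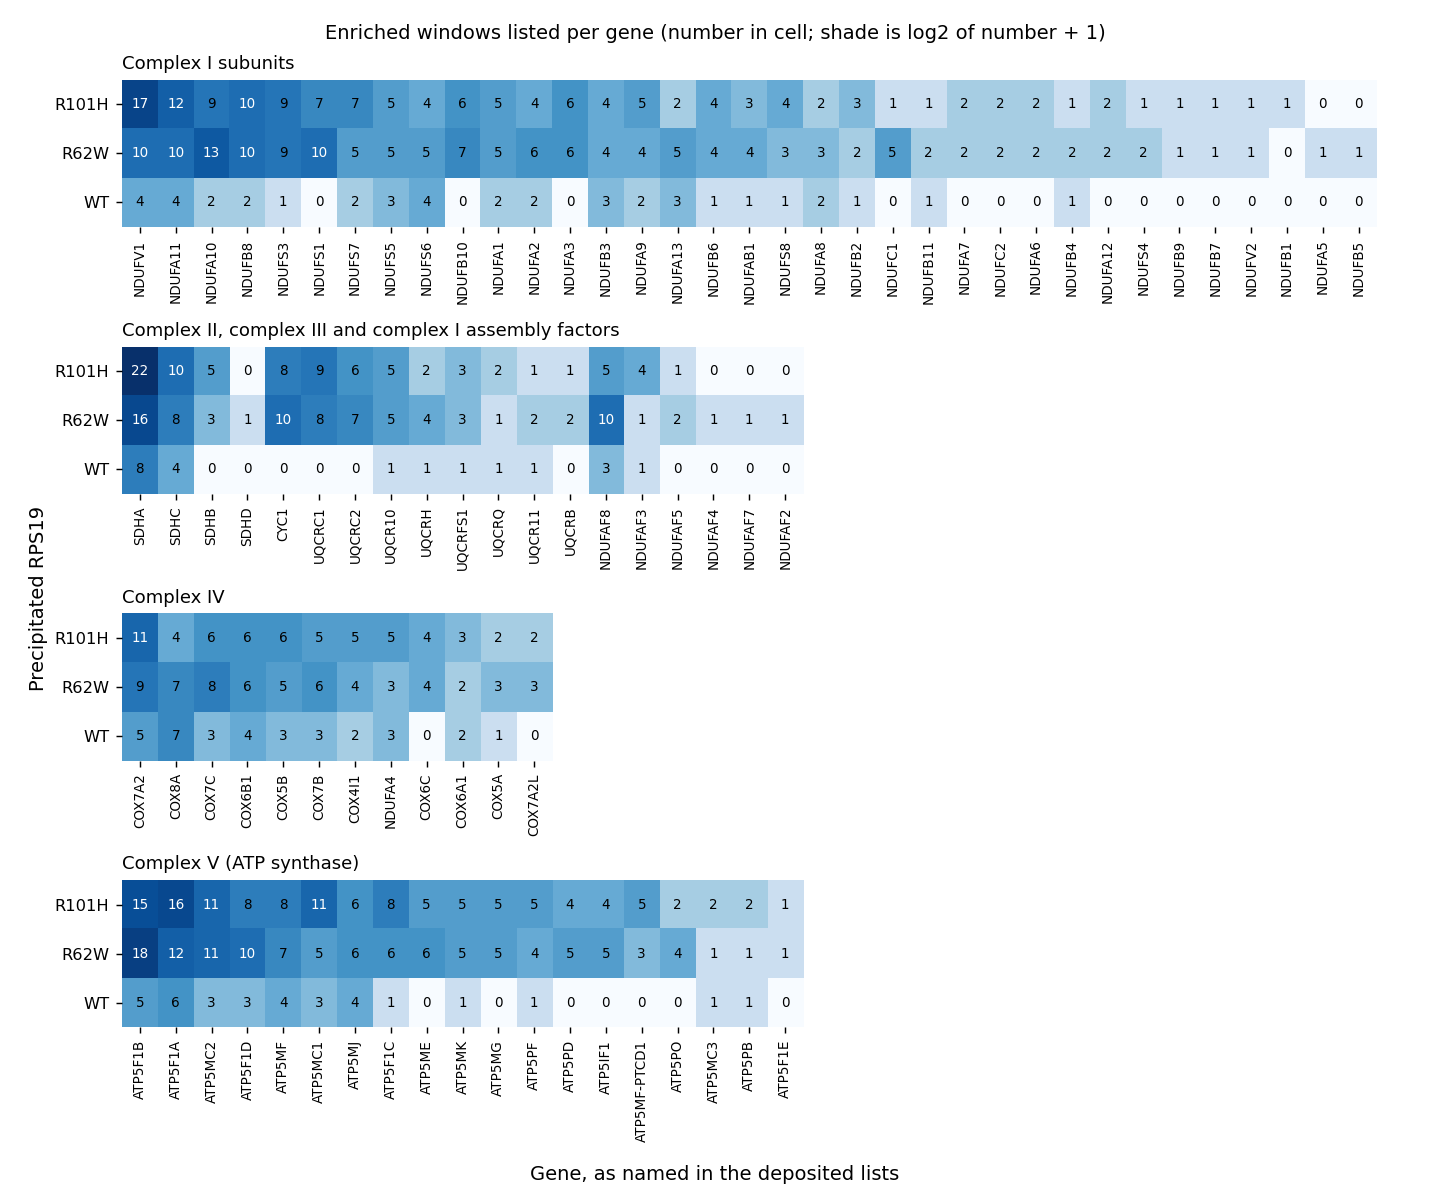
Number of enriched windows per OXPHOS gene (columns, ordered within each complex by the total over the 3 lists) in the R101H, R62W and WT lists (rows), for 85 of the 86 listed genes. SDHA had the most, with 22 in R101H, 16 in R62W and 8 in WT, while CYC1, UQCRC1 and UQCRC2 had none in WT.

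Complex I subunits took 155 windows in 34 genes in R101H, 163 in 35 in R62W and 42 in 20 in WT. NDUFV1, the flavoprotein subunit that takes electrons from NADH, had the most, with 17 windows in R101H, 10 in R62W and 4 in WT. Its most-read window in all 3 lists (coding, chromosome 11, 67611897 to 67611978) had 0.63 and 2.16 in R101H, 0.55, 1.22 and 1.57 in R62W, and 0.94 and 1.17 in the 2 passing WT replicates. The 3 ranges overlapped. NDUFA11, an accessory membrane subunit, had 12 windows in R101H, 10 in R62W and 4 in WT. Introns held 9, 7 and 3 of these. NDUFA10, another accessory subunit, had 9, 13 and 2, with 4, 5 and 2 in introns. NDUFS1, a core iron-sulfur subunit of the arm that carries electrons to ubiquinone, had 7 windows in R101H and 10 in R62W and none in WT. The accessory subunits NDUFB10 (6 and 7) and NDUFA3 (6 and 6) were likewise without a WT window. NDUFS3, also a core subunit, had 9 windows in R101H, 9 in R62W and 1 in WT. NDUFS6, a small accessory subunit, had nearly as many in each list, with 4, 5 and 4.

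The complex I assembly factors, which help to build the complex and are not part of it, had 10 windows in R101H, 16 in R62W and 4 in WT. NDUFAF8 held 5, 10 and 3 of them, and none of these lay in coding sequence. Its most-read window (3′ UTR, chromosome 17, 81241154 to 81241231) had 1.20 and 1.64 in R101H, 0.73, 1.12 and 1.15 in R62W, and 1.03 in both passing WT replicates. NDUFAF3 had 4, 1 and 1 windows, and NDUFAF5, which modifies a subunit of the complex, had 1 and 2 with the substitutions and 0 in WT.

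Complex II, succinate dehydrogenase, took 37 windows in R101H, 28 in R62W and 12 in WT, most of them in SDHA, the flavoprotein subunit that oxidises succinate. The SDHA windows were coding in 21 of 22 cases in R101H, 16 of 16 in R62W and 8 of 8 in WT. One coding window (chromosome 5, 228185 to 228258) had 1.95 and 2.10 in R101H, 1.34, 1.93 and 1.95 in R62W and 1.55, 1.66 and 1.95 in WT. Both R101H values lay above the WT values, though by little, with a mean 0.31 higher (SE 0.34, limma adjusted p = 0.622), and R62W differed from WT by 0.02 (SE 0.28, limma adjusted p = 0.991). SDHC, a membrane anchor, had 10, 8 and 4 windows. SDHB, the iron-sulfur subunit, had 5 and 3 with the substitutions and none in WT, and the other anchor, SDHD, had 1 window, in R62W.

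Complex III differed most between the lists by count, with 37 windows in R101H, 42 in R62W and 5 in WT, or 7.40 and 8.40 times the WT number. The genes with most windows, CYC1 for cytochrome c1 (8 in R101H and 10 in R62W) and the core subunits UQCRC1 (9 and 8) and UQCRC2 (6 and 7), had no window in WT. The most-read CYC1 window (coding, chromosome 8, 144096664 to 144096744) had 1.57 and 1.72 in R101H and 1.07, 1.39 and 1.92 in R62W, and that of UQCRC1 (coding, chromosome 3, 48605770 to 48605856) had 1.06 and 1.47 in R101H and 0.94, 1.05 and 1.39 in R62W. These windows passed in every replicate of both substitutions. The most-read UQCRC2 window (coding, chromosome 16, 21971923 to 21972022) had 1.08 and 1.52 in R101H and 0.83, 1.33 and 1.75 in R62W. The 5 WT windows each lay in a different gene: UQCR10, UQCRH, UQCRQ, UQCR11 and UQCRFS1, of which the last encodes the Rieske iron-sulfur protein.

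Complex IV differed least, with 59 windows in R101H, 60 in R62W and 33 in WT, or 1.79 and 1.82 times the WT number. Of its 12 listed genes, 10 were in WT (83.3%), all but COX6C and COX7A2L. NDUFA4, with 5 windows in R101H, 3 in R62W and 3 in WT, was counted here and not with complex I. COX7A2L was counted with complex IV, though not as a subunit. COX7A2, a small subunit, had 11 windows in R101H, 9 in R62W and 5 in WT. Its most-read window (coding, chromosome 6, 75243735 to 75243787) had 2.07 and 2.80 in R101H, 1.61, 1.88 and 2.37 in R62W and 0.94, 1.42 and 2.17 in WT. The R101H minus WT difference of 0.93 (SE 0.48, limma adjusted p = 0.306) was the highest among OXPHOS windows that passed in every replicate, though the highest WT value lay above the lowest R101H value. A neighbouring coding exon of COX7A2 (75240277 to 75240330) was the 1 window of that kind with R62W below WT, at 1.52, 1.72 and 2.02 in R62W and 1.73, 1.87 and 2.34 in WT. R62W minus WT came to -0.22 (SE 0.28, limma adjusted p = 0.860). COX8A, also a small subunit, had 4 windows in R101H, 7 in R62W and 7 in WT, the highest WT count of the complex, and 3 of the 7 WT windows were intronic, against 0 in R101H and 1 in R62W. COX7C had 6, 8 and 3 windows, COX6B1 6, 6 and 4, COX5B 6, 5 and 3, and COX7B 5, 6 and 3.

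Complex V took 123 windows in R101H, 115 in R62W and 33 in WT. ATP5F1B and ATP5F1A, the beta and alpha subunits of the catalytic head, had 15 and 16 windows in R101H, 18 and 12 in R62W, and 5 and 6 in WT. ATP5F1A was covered mainly in coding sequence (14, 11 and 5), whereas 9 windows of ATP5F1B in R101H, 12 in R62W and 1 in WT were intronic. The most-read ATP5F1B window (coding, chromosome 12, 56640122 to 56640192) had 0.75 and 1.51 in R101H, 0.44 and 0.70 in R62W and 0.55 and 0.63 in WT, with pooled IP counts of 485, 326 and 401. R101H lay above the other groups there, and in R62W and in WT 1 replicate each had not passed. ATP5MC2 had 11, 11 and 3 windows, and ATP5MC1, a second subunit c gene for the same protein, had 11, 5 and 3. ATP5MF, a membrane subunit, had 8, 7 and 4, and ATP5MJ, a small proteolipid, 6, 6 and 4. Without a WT window were ATP5ME (5 and 6), ATP5MG (5 and 5), ATP5PD (4 and 5) and the ATPase inhibitor ATP5IF1 (4 and 5).

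The plot of list sizes relative to WT sets the complexes beside each other.

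**Figure D2:**
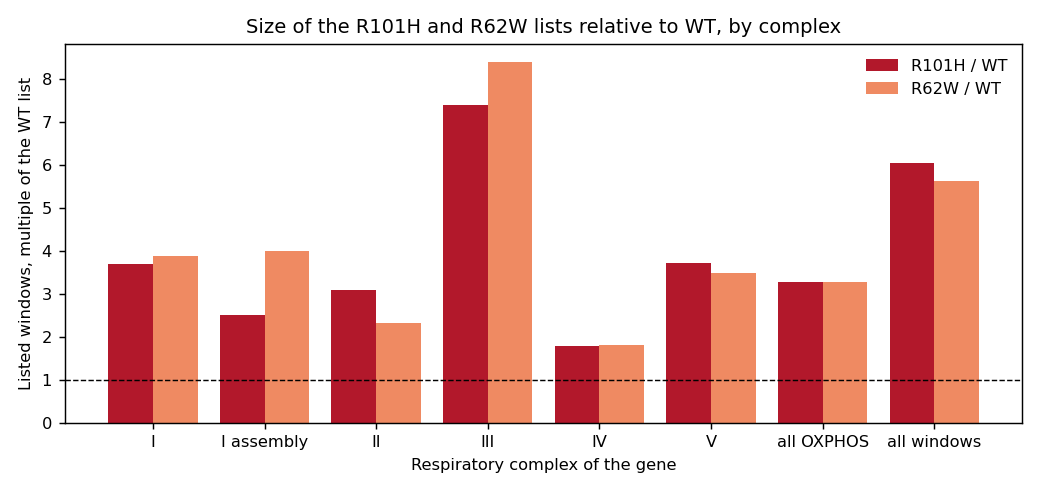
Number of listed windows as a multiple of the WT number (vertical axis, linear from 0) for R101H and R62W, by complex, over all OXPHOS windows and over all windows; the dashed line marks the WT number. Complex IV stood at 1.79 and 1.82, complex III at 7.40 and 8.40 on 5 WT windows, and all windows at 6.06 and 5.62.

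On the mRNA, OXPHOS windows lay at the ends of the coding sequence more often than windows in general. Stop codon windows made up 49 of 422 in R101H (11.6%, exact Clopper-Pearson 95% interval 8.71 to 15.1), 56 of 424 in R62W (13.2%, 10.1 to 16.8) and 23 of 129 in WT (17.8%, 11.7 to 25.5). Over all windows these shares were 2.91%, 2.91% and 2.65%. The intervals cover counting error only, and windows of 1 gene are not independent. Start codon windows made up 6.87%, 5.66% and 8.53% of OXPHOS windows, and 1.72%, 1.72% and 1.26% of all windows. By contrast 3′ UTR windows made up 10.4% in R101H, 12.0% in R62W and 7.75% in WT, where over all windows they were 26.3%, 23.2% and 21.4%. Counted by gene, a stop codon window was listed for 42 of 80 OXPHOS genes with an mRNA exon window in R101H (52.5%), 50 of 85 in R62W (58.8%) and 21 of 47 in WT (44.7%). Over all gene names the shares were 33.3%, 32.6% and 14.4%. The part that short coding sequences and short 3′ UTRs have in these shares was not tested. Genes of the mitochondrial ribosome, taken as another list, had stop codon shares of 11.4%, 12.0% and 14.7%. A stop codon window can belong to a minor isoform, and in R101H SDHA, SDHC, UQCR10, COX5A and ATP5MC1 had 2 each and COX7A2 had 3.

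Among OXPHOS windows that passed in every replicate, 19.7% lay at a stop codon in R62W (39 of 198) and 33.3% in WT (7 of 21, 14.6 to 57.0). Over all such windows 3.04% and 2.42% did. The R62W share was above the 13.2% of all R62W OXPHOS windows, while the WT interval included the 17.8% of all WT OXPHOS windows. All R101H windows passed in both replicates, so this cut left the R101H share at 11.6% (49 of 422). At a highest q of at most 0.05 the share was higher in each group, but within that group's interval over all OXPHOS windows. The 7 WT stop codon windows that passed in every replicate were those of NDUFAB1, NDUFB2, NDUFB3, NDUFS5, NDUFS6, UQCR10 and COX6B1. NDUFAB1, the mitochondrial acyl carrier protein, had 2.60 and 3.51 in R101H, 2.68, 2.96 and 3.18 in R62W and 1.51, 2.66 and 3.34 in WT at its stop codon (chromosome 16, 23582284 to 23582375). At that of NDUFB3, an accessory subunit (chromosome 2, 201085516 to 201085615), R101H had 2.03 and 3.48, R62W had 1.98, 2.28 and 2.41, and WT had 1.80, 1.80 and 1.93. All values of both substitutions lay above the WT values at NDUFB3, while those of NDUFAB1 overlapped. The R101H minus WT difference at NDUFB3 was 0.91 (SE 0.49, limma adjusted p = 0.315). The stop codon of UQCR10, a small complex III subunit (chromosome 22, 29769678 to 29769719), had 2.21 and 2.45 in R101H, 2.14, 2.34 and 2.53 in R62W and 1.90, 1.91 and 2.06 in WT, also without overlap with WT. At the stop codons of NDUFB2, NDUFS5 and NDUFS6 both substitutions overlapped WT, and at that of COX6B1 only R101H lay wholly above WT. Over all windows that passed in every replicate, R101H lay wholly above WT in 55.5% and R62W in 31.7%.

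**Figure D3:**
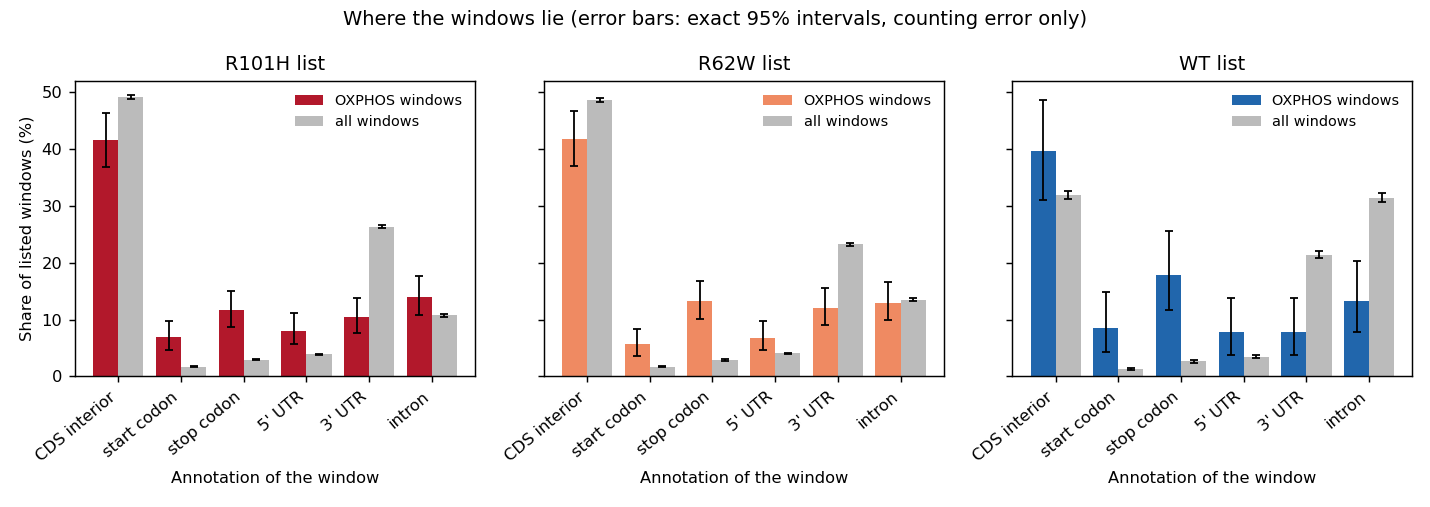
Share of listed windows (%) by annotation for OXPHOS windows (coloured) and all windows (grey) in the R101H, R62W and WT lists, with exact 95% intervals for counting error. OXPHOS windows show 11.6%, 13.2% and 17.8% at stop codons, against 2.91%, 2.91% and 2.65% of all windows.

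Introns held 59 OXPHOS windows in R101H (14.0%), 55 in R62W (13.0%) and 17 in WT (13.2%). Over all windows the intron share was 10.7%, 13.5% and 31.4%, so OXPHOS windows did not follow the larger intron share of the WT list. ATP5F1B and NDUFA11 together held 18, 19 and 4 of them. Intron windows rested on few input reads, with a median pooled input count of 5 in R101H, 6 in R62W and 6 in WT, where other OXPHOS windows had 29, 32 and 36. The highest OXPHOS ratios came from such windows. In R101H these were an ATP5F1B intron (chromosome 12, 56645454 to 56645547) at 4.11 and 4.26 and an ATP5MC1 intron (chromosome 17, 48893110 to 48893208) at 3.95 and 4.15, and in R62W an intron of UQCRC1 (chromosome 3, 48599811 to 48599886) at 3.77 and 4.21. In WT they were an intron of COX8A (chromosome 11, 63976025 to 63976124) at 4.21 and 5.07 and one of ATP5F1D, the delta subunit of ATP synthase (chromosome 19, 1243997 to 1244056), at 4.26 and 4.34. All 5 had an input count of 0 in that list, which leaves their size poorly fixed. The next highest included an NDUFB10 intron in R101H at 3.04 and 4.54 and exons of ATP5F1D isoforms that are not coding. In R101H they also included a coding window of the readthrough gene ATP5MF-PTCD1 (chromosome 7, 99433348 to 99433418) at 2.62 and 4.98, which overlaps PTCD1. Of the 129 OXPHOS windows of the WT list, 13 in 11 genes were in no other list, as were 2684 of all 15402 WT windows. Among the 13, 7 were intronic, 2 of them in COX8A. The intron share over all windows listed in WT alone was not computed.

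The median log2 odds ratio over OXPHOS windows was 1.64 in R101H, 1.59 in R62W and 1.57 in WT, and over all listed windows it was 2.00, 1.90 and 2.03. At stop codons, OXPHOS medians of 1.67, 1.59 and 1.78 stood beside 1.82, 1.68 and 1.67 over all windows. OXPHOS windows also had more input reads, as given above, and the part of this in the lower ratios was not tested.

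Windows listed in a pair of groups allow a test over replicates. R62W and WT shared 113 OXPHOS windows (26.7% of R62W and 87.6% of WT), R101H and WT shared 102 (24.2% of R101H and 79.1% of WT), and R101H and R62W shared 296 (70.1% and 69.8%). Over all windows the shares of WT were 79.6% and 72.0%. All 3 lists held 99 OXPHOS windows in 45 genes. Of these windows, 53 had their means in the order R101H above R62W above WT, while WT was lowest in 66 and highest in 9. The order was counted for OXPHOS windows only. Of these 99, R101H exceeded WT in 85.9%, R62W exceeded WT in 71.7% and R101H exceeded R62W in 77.8%. Over all 10627 windows in the 3 lists, the same shares were 84.5%, 78.4% and 79.3%. The 3 comparisons share samples. R62W and WT appear to share inputs, since their pooled input counts were identical in 79.7% of windows that passed in every replicate. With 2 replicates passing in each group, R101H input counts were identical to those of R62W in 42.0% of windows and of WT in 17.3%. The R101H inputs may thus be shared too, and the series holds only 3 inputs. The order is therefore a description.

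No OXPHOS window passed limma's adjusted p of 0.05 in any of the 3 comparisons. For R101H minus WT, 0 of 102 were called (1 had an unadjusted p under 0.05), as were 0.0% of all 11082 shared windows. The median difference over the 102 windows was 0.37, with 86 above 0 (84.3%), and it turned to -0.23 when differences were centred on the median of all shared windows. Over all shared windows that median was 0.60 and 82.5% lay above 0. Every passing R101H replicate exceeded every passing WT replicate in 34 windows (33.3%, against 48.4% of all) and lay below in 2 (1.96%, against 3.84%). Of the 102, all passed in both R101H replicates but only 20 in all 3 WT replicates, so for most windows the WT mean leaves out a replicate that had not passed.

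In the 20 OXPHOS windows, from 15 genes, that passed in every replicate, R101H exceeded WT in 20 of 20, with a median difference of 0.53. Over the 2730 windows of that kind the median was 0.91 and 83.4% lay above 0. There limma called 498 of all 2730 windows (18.2%) and 0 of the 20, of which 1 had an unadjusted p under 0.05. With at least 10 input counts it called 654 of all 6945 windows (9.42%) and 0 of 90 OXPHOS windows, of which 1 had an unadjusted p under 0.05. The lowest limma adjusted p among the 20 was 0.0750, for the NDUFA1 start window. At the other end, the stop codon window of NDUFB2, an accessory complex I subunit (chromosome 7, 140704860 to 140704934), had 1.68 and 2.40 in R101H and 1.20, 1.65 and 2.59 in WT. These differed by 0.23 (SE 0.51, limma adjusted p = 0.751 in the same fit). The plot of replicate values shows these 20 windows.

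**Figure D4:**
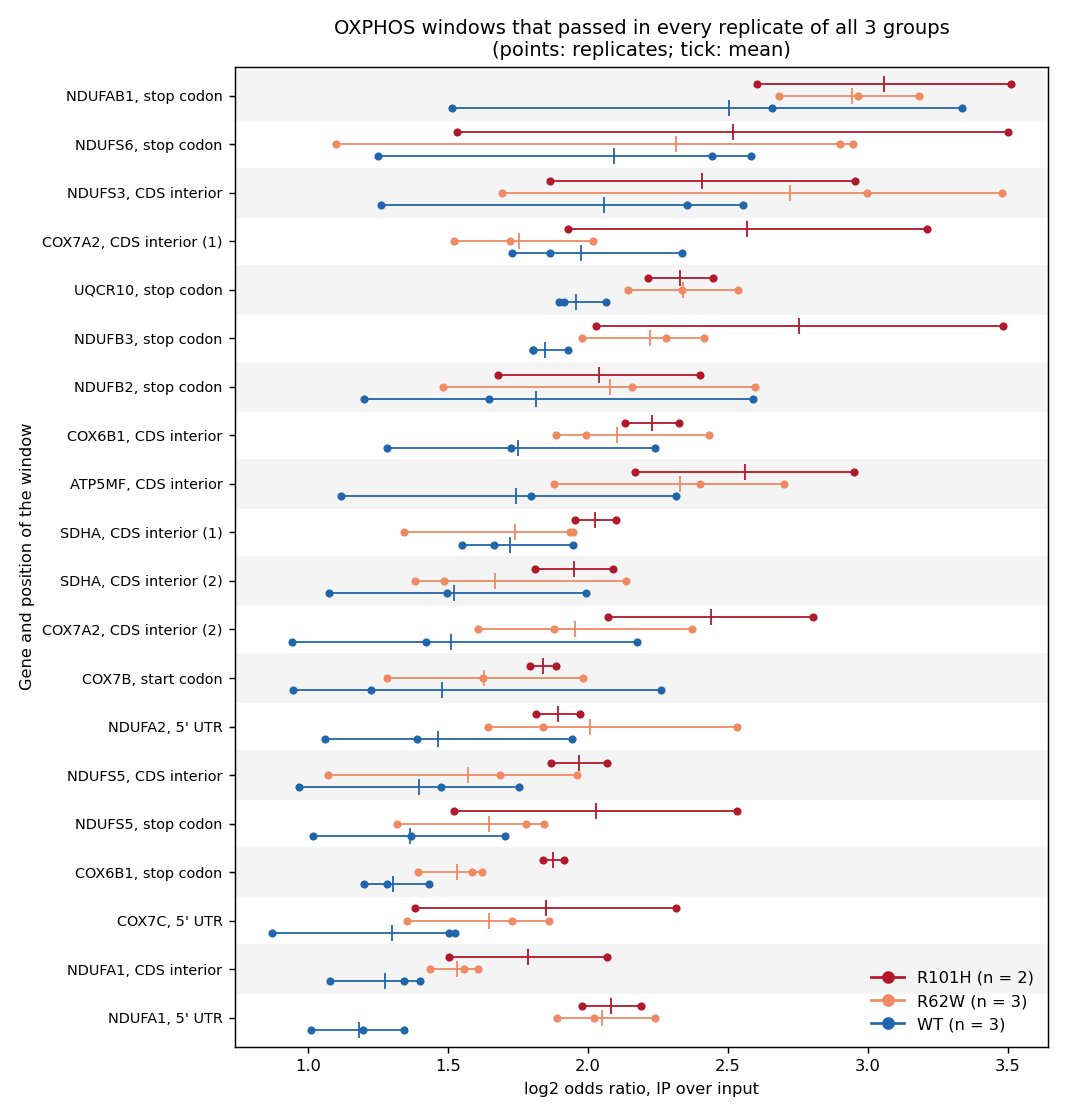
Log2 odds ratio of IP over input (horizontal axis) in each replicate (points; the tick is the mean) for the 20 OXPHOS windows that passed in every replicate of R101H, R62W and WT. R101H means lie above WT means in all 20, and R62W means in 19, the exception being a COX7A2 coding window.

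Setting R62W against WT, limma called 0 of 113 OXPHOS windows, 1 of which had an unadjusted p under 0.05. It called 0.0% of all 12263 shared windows. The median difference was 0.16, with 79 above 0 (69.9%), against 0.26 and 72.4% over all, and it turned to -0.11 when centred. The groups did not overlap in 14 windows with R62W higher (12.4%, against 24.1% of all) and 4 with R62W lower (3.54%, against 4.24%). Of the 113, 90 passed in all 3 R62W replicates but only 20 in all 3 WT replicates. Most WT means here thus also leave out a replicate that had not passed. In the 20 windows that passed in every replicate the median was 0.32 and 19 lay above 0, where over all 2672 such windows the median was 0.57 and 83.7% lay above 0. Of these 2672, limma called 0.0374%, and 0 of the 20. With at least 10 input counts it called 0 of 98 OXPHOS windows and 0.0131% of all, and with a highest q of at most 0.05 it called 0 of 18 and 0.0486% of all, with a median of 0.0069 over the 18 and 9 above 0. The highest after NDUFA1 was a coding window of NDUFS3 (chromosome 11, 47582349 to 47582408), at 1.69, 2.995 and 3.48 in R62W and 1.26, 2.35 and 2.55 in WT. Its mean was 0.67 higher in R62W (SE 0.55, limma adjusted p = 0.449 in the fit over these windows). A coding window of ATP5MF (chromosome 7, 99460155 to 99460223) followed, at 1.88, 2.40 and 2.70 in R62W and 1.12, 1.80 and 2.31 in WT, and was 0.58 higher in R62W (SE 0.39, limma adjusted p = 0.351 in that fit). In both genes the ranges overlapped.

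Between R101H and R62W limma called 0 of 296 OXPHOS windows (1 had an unadjusted p under 0.05) and 0.0% of all 59874. The median difference was 0.17, with 209 above 0 (70.6%), against 0.21 and 71.8% over all, and it turned to -0.044 when centred. R101H lay wholly above R62W in 35 windows (11.8%, against 17.9% of all) and wholly below in 6 (2.03%, against 3.59%). Complex V held 19 of the 35 and complex I held 3, on 90 and 99 shared windows. Among the 175 that passed in every replicate, 139 lay above 0 (79.4%, against 80.8% of all such windows). There the differences with most weight to R101H were the ATP5MF-PTCD1 window named above (0.86, SE 1.12), a COX7B 3′ UTR window (0.85, SE 0.58) and an exon of a non-coding CYC1 isoform (0.85, SE 0.68). Those with most weight to R62W were the stop codon window of NDUFA1 (-0.76, SE 0.62), an ATP5F1B intron (-0.75, SE 0.45) and an exon of a non-coding NDUFAF8 isoform (-0.45, SE 0.39). Each of these 6 had overlapping replicate values and a limma adjusted p of 0.940 in the fit over windows that passed in every replicate.

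The plot of differences shows the OXPHOS windows packed more closely than all shared windows in each comparison, most of all on the high side of R101H minus WT.

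**Figure D5:**
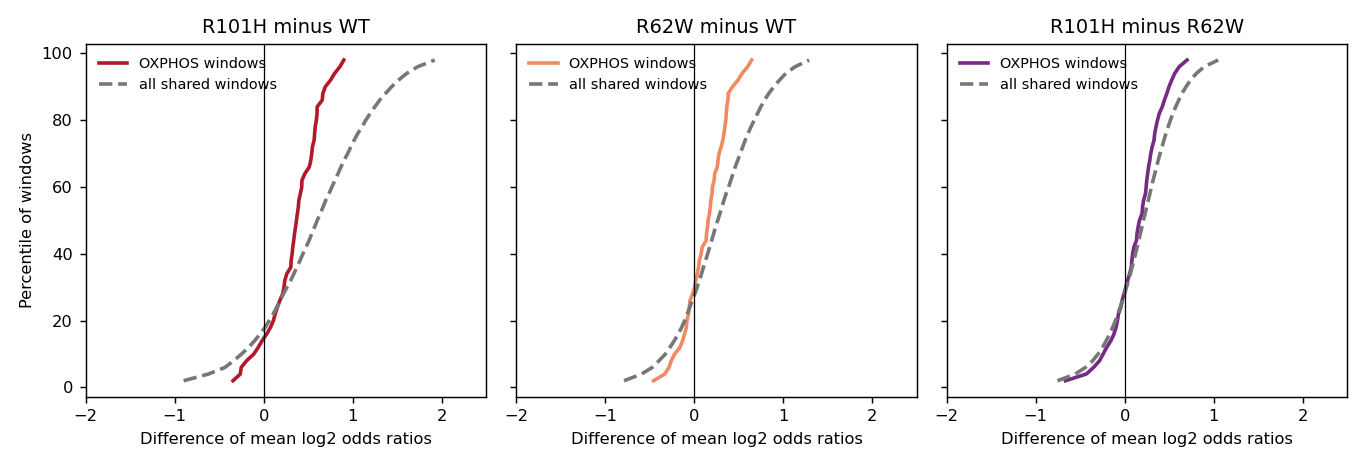
Percentile (vertical axis) of the difference of mean log2 odds ratios (horizontal axis) over OXPHOS windows (solid) and all shared windows (dashed) for R101H minus WT, R62W minus WT and R101H minus R62W, drawn from the 2nd to the 98th percentile in steps of 2. The solid lines cross the 50th percentile at 0.37, 0.16 and 0.17, and the dashed lines at 0.60, 0.26 and 0.21.

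By complex, the median R101H minus WT difference was 0.47 over 30 windows of complex I, 0.43 over 11 of complex II, 0.36 over 30 of complex IV and 0.24 over 26 of complex V. For R62W minus WT these were 0.22 over 36, 0.08 over 10, 0.09 over 31 and 0.06 over 29. Complex III had only 2 windows shared by R101H and WT and 3 by R62W and WT. By position, the median for intronic OXPHOS windows was 0.09 in R101H minus WT (6 windows) and -0.07 in R62W minus WT (10 windows), while for 5′ UTR windows it was 0.49 (10) and 0.19 (9).

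Lists of other mitochondrial genes gave these shares. Of genes with a window in any list, WT held 18 of 67 for the mitochondrial ribosome (26.9%), 8 of 42 for respiratory chain assembly factors outside the rule (19.0%), 6 of 18 for the citrate cycle (33.3%) and 9 of 27 for protein import (33.3%), against 51 of 86 for OXPHOS. No test was made between these lists. All 7 listed transcripts of the mitochondrial genome, which are translated by mitochondrial ribosomes, were in R101H and in WT and 3 were in R62W, with median log2 odds ratios of 0.69 in R101H, 0.57 in R62W and 0.73 in WT. Many nuclear OXPHOS genes have processed copies in the genome. RefSeq names 193 pseudogenes after genes that the rule takes, for 49 of the 98 genes, with 18 for COX6C, 12 each for NDUFB4 and NDUFA5, and 8 for COX5B, so the placement of some reads is uncertain.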

How the data were processed

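RNA was measured by eCLIP in 11 samples, grouped by their titles. Adapter and alignment tools were fastp and STAR, with the GRCh38 build, per the submitters' processing notes. The window caller and the versions: not given in the sources used here. For each IP group the authors deposited 1 window list, made from all its replicates. Per the file headers, the deposited counts are pooled IP and input read counts per window, and the deposited log2 columns hold odds ratios (IP against input) as lowest, mean and highest over passing replicates. The deposited q-values come from the enrichment test that the authors ran, the deposited G and C fraction is per window, and a further deposited column gives the number of passing replicates. From the values, pooled counts cover passing replicates only. Windows that passed in 3 R62W and 2 WT replicates had 1.63 times the WT input, and windows that passed in 2 of each had 1.00 times. Pooled counts are therefore not compared between windows with different numbers of passing replicates, and no count model could be fitted. R101H input counts were 0.664 times those of WT where every replicate passed, so which inputs that list used is unknown. Tables of repeat elements were not used.

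The lowest, mean and highest values fix every passing replicate's value, unlabelled. Windows listed in both groups of a comparison were fitted together (lmFit and eBayes of limma 3.58.1 in R 4.3.3), with Benjamini-Hochberg adjustment over all of them at 0.05 and windows of OXPHOS genes read from that fit. The fit was tested only on simulated windows with every replicate present and with changes larger than any seen in OXPHOS windows. It was not tested with missing replicates or with changes of the observed size. Shares carry exact Clopper-Pearson 95% intervals (scipy 1.17.1), which like pooled counts cover counting error only. Coordinates are 1-based on GRCh38. Of the 98 genes, 97 matched RefSeq by symbol and NDUFA4 by synonym, and 77 had a start sequence.

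Genes were named by a rule: the 3 with most windows in each complex, those with a WT window at a highest q of at most 0.05 (up to 10), any called window, the 3 highest and 3 lowest differences per comparison among windows passing in every replicate, the 5 highest ratios per list, and up to 10 genes in both substitution lists and not WT. Of these, 1 gene is not reported here by name. Others, such as those with a start or stop codon window, were named after their values were seen. The members, gene lists and tests were chosen with earlier results of these data known.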

Additional observations from a re-analysis of the deposited data

How the results depend on the processing

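No paired analysis was possible because the columns carry no replicate numbers, and for the same reason fits that leave out 1 replicate were not run. In every limma setting, 0 OXPHOS windows were called, and 0 to 3 had an unadjusted p under 0.05. Median differences stayed above 0 with windows passing in every replicate, at least 10 input counts, a highest q of at most 0.05 or 1 value per gene, but their size moved: that of R62W minus WT was 0.16 over 113 windows, 0.32 over the 20 passing in every replicate and 0.0069 over the 18 at the stricter q, of which 9 lay above 0. They turned negative when differences were centred on the median of all shared windows, to -0.23 in R101H minus WT, -0.11 in R62W minus WT and -0.044 in R101H minus R62W. When centring was joined to passing in every replicate, an alternative added after seeing the data, they were -0.37, -0.25 and -0.062. The median OXPHOS window thus lay above 0 as deposited and below the median shared window. Centring also turned single windows negative, without and with the requirement of every replicate: for R101H minus WT, NDUFB2 (-0.37, -0.68), SDHA from 228185 (-0.30, -0.60), NDUFS3 (-0.25, -0.55) and, with it only, the NDUFA1 start (-0.0052); for R62W minus WT, SDHA from 228185 (-0.24, -0.55) and from 233477 (-0.12, -0.42).

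List sizes depended on the cut. At a highest q of at most 0.05, OXPHOS windows numbered 206 in R101H, 122 in R62W and 24 in WT, in 55 genes in R62W and 17 in WT. Windows passing in every replicate numbered 198 in R62W and 21 in WT, those of WT in 16 genes. With all lists cut to the WT length, R101H kept 58 windows in 34 genes and R62W 76 in 46, fewer than the 129 in 51 of WT. Coding shares were 67.0% in R101H and 65.6% in R62W at the stricter q, 69.7% in R62W and 81.0% in WT for every replicate, and 72.4% in R101H and 73.7% in R62W at equal length. Stop codon shares were 19.7% in R62W and 33.3% in WT for every replicate, and 24.1% in R101H and 22.4% in R62W at equal length. Leaving out windows with a second gene, or all but structural subunits, kept every count within 1.5 times and every share within its interval. Depth limits single windows, with a median pooled input of 24 in R101H, 24 in R62W and 29 in WT.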
